A study of Homo sapiens with 6 samples.

Results

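The genes described here are 10 keratins that A549 cells expressed: KRT7, KRT8 and KRT18 of simple epithelium, and KRT4, KRT10, KRT15, KRT19, KRT20, KRT80 and KRT81, most of which are known from stratified, glandular, intestinal or hair-forming epithelium. They were taken by gene symbol from the 53826 entries of each expression table, and all 10 were among the 13181 entries analysed, which had more than 2 TPM in at least 1 of the 6 libraries. TPM is a transcript level scaled for the length of the gene and for the total of the library. The genes were chosen with their levels in these same libraries in view, so the differences between the lines are given for them as a description, without a test. The other keratin that passed the filter was KRT86, which is described beside KRT81.

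Keratins are the intermediate filament proteins of epithelial cells. A filament is built from pairs of a type I (acidic) and a type II (basic) chain, so that cells make members of both types together. Single-layered epithelium such as that of the lung, liver and gut is known for the pair KRT8 and KRT18, joined by KRT7 and KRT19 in ducts and airways and by KRT20 in the intestine. Basal cells of layered epithelium are known for KRT5 with KRT14 and for KRT15, the layers above them for KRT10 in skin and KRT4 in the mouth and oesophagus, and hair for KRT81 and KRT86. The filaments are anchored at desmosomes and hemidesmosomes by plakins such as desmoplakin and plectin.

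A549 cells come from a human adenocarcinoma of the lung. A549-TIPARP cells carried TIPARP in the retroviral vector pMXs, and A549-GFP cells, the control, carried GFP in the same vector. TIPARP is a mono-ADP-ribosyltransferase that the aryl hydrocarbon receptor induces. RNA-seq was carried out on 3 libraries of each line, which the sample titles number as experiments 1 to 3 (Exp1 to Exp3) and which are called replicates here, and neither line is described as a clone or as a pool of clones. Whether an experiment was a separate culture is not said, so the p-values measure the spread between these libraries, which may be technical.

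TIPARP itself was read at 6.79, 11.4 and 3.68 TPM in A549-GFP and at 131, 90.5 and 123 TPM in A549-TIPARP, which matches the labels (17.2-fold, limma adjusted p = 0.0125). The adjusted p of TIPARP was 0.0331 without replicate 2 of A549-GFP and 0.0526 to 0.192 when any other library was left out. Replicate 2 of A549-GFP stood apart: over the analysed genes it lay 0.621 (root mean square, log2 scale) from its line's mean, against 0.185 to 0.400 in the other 5 libraries. The keratin results that rest on it are given with and without it, as are the partner genes and lists whose difference turned or moved far without it. Read depth is unknown, because TPM does not hold it, and the values were deposited with a floor of 1 TPM. Of the epithelial markers that are not among the 10 keratins, EPCAM, CDH1, CLDN4, CLDN7 and MUC1 were above the floor (5 of 5). EPCAM was at 126 to 221 TPM, CDH1 at 61.0 to 142 TPM and MUC1 at 3.03 to 16.5 TPM. CLDN4, at 1.29 to 4.65 TPM, and CLDN7, at 1.35 to 5.09 TPM, were close to the floor. Markers of endothelium were at the floor in all libraries (0 of 5 detected), and 2 of 7 fibroblast markers were above it. Of the leukocyte markers reported, CD68 and LYZ were above the floor, and PTPRC and CD3E were at the floor in all libraries. Of 7 markers of basal cells and keratinocytes only KRT6A was above the floor, at 1.20 TPM in replicate 1 of A549-GFP, while KRT5, KRT14, KRT17, TP63, DSG3 and NGFR were at the floor in all 6 libraries.

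The 10 keratins fell into a high and a low set. KRT18, KRT8, KRT81 and KRT7 stood at 2020 TPM or more in each library, and the other 6 keratins stood between the floor and 109 TPM. The mean log2 level dropped by 5.0 from KRT7 to KRT10 in A549-GFP and by 5.34 in A549-TIPARP, the largest step between neighbours in each line. The order in A549-GFP was KRT18, KRT8, KRT81, KRT7, KRT10, KRT80, KRT4, KRT15, KRT19 and KRT20. The ranges of the libraries overlapped between KRT18 and KRT8, between KRT4 and KRT15, and between KRT15 and KRT19. Within a library, KRT18 was above KRT8 and KRT15 above KRT19 in 3 of 3 A549-GFP libraries, and KRT4 was above KRT15 in 2 of 3, so that KRT4 and KRT15 were the neighbours whose order was not kept. In A549-TIPARP the order was the same except that KRT15 stood before KRT4, and the ranges overlapped between KRT18 and KRT8, KRT81 and KRT7, KRT10 and KRT80, and KRT15 and KRT4. There KRT18 was above KRT8 in 3 of 3 libraries, and the other overlapping neighbours kept their order in 2 of 3. These levels are of bulk RNA, in which more cells with a transcript and more transcript per cell cannot be told apart.

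**Figure D1:**
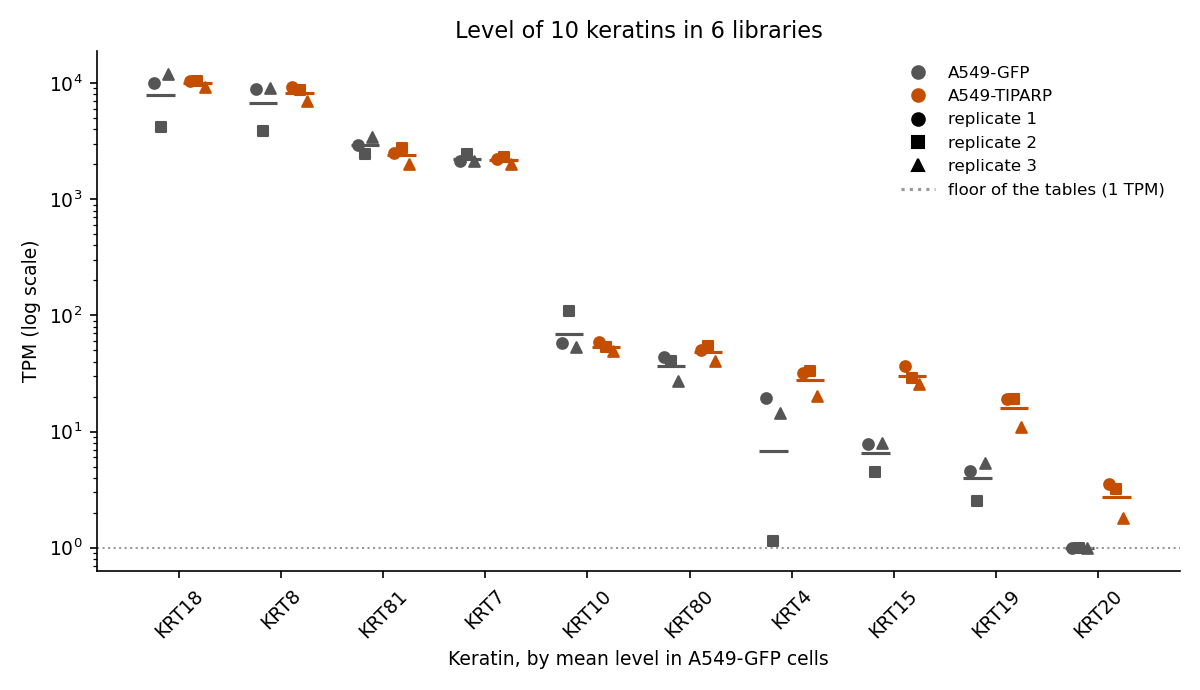
Level of each keratin in the 3 A549-GFP and the 3 A549-TIPARP libraries, as TPM on a log axis. KRT7, KRT8, KRT18 and KRT81 lie at 2020 TPM or more in both lines, and KRT4, KRT15, KRT19 and KRT20 are the members whose A549-TIPARP libraries all lie above the A549-GFP libraries.

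KRT7, KRT8 and KRT18, the simple keratins set apart here, showed no common direction between the lines. KRT19 and KRT20, also known from single-layered epithelium, are described with the other keratins below. KRT18, the type I chain of the simple pair, was at 10108, 4176 and 11876 TPM in A549-GFP and at 10399, 10441 and 9272 TPM in A549-TIPARP. The A549-TIPARP values lay within the range of the A549-GFP values, in which replicate 2 was the low one. The mean log2 level was 12.96 ± 0.81 (SD, n = 3) in A549-GFP and 13.29 ± 0.10 (SD, n = 3) in A549-TIPARP, a log2 difference of 0.34 that became -0.13 without replicate 2 of A549-GFP.

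KRT8, the type II partner of KRT18, was at 8947, 3855 and 9127 TPM in A549-GFP and at 9287, 8753 and 6959 TPM in A549-TIPARP. The groups overlapped, and replicate 2 of A549-GFP was again the lowest library, 2.34-fold under the geometric mean of the other A549-GFP libraries (2.62-fold for KRT18). The log2 difference of the means was 0.28 with all libraries and -0.13 without that library. KRT7, the type II keratin of glandular and ductal epithelium, was at 2119, 2433 and 2148 TPM in A549-GFP and at 2227, 2310 and 2024 TPM in A549-TIPARP. All 6 values of KRT7 were close together and the groups overlapped, with a log2 difference of -0.03 that turned to 0.03 without replicate 2 of A549-GFP.

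KRT8 and KRT18 are neighbours on chromosome 12 of hg38. KRT8 lies on the minus strand at chr12:52897187-52949954 with 8 exons in its canonical transcript, and KRT18 on the plus strand at chr12:52948871-52952906 with 7 exons. The annotated genes overlap by 1084 bases at their 5′ sides. Whether the authors counted reads by strand is not given in the sources used here, so reads from the overlap cannot be assigned with certainty. KRT7 lies apart from them on the plus strand at chr12:52232520-52252186, with 9 exons, and its last 2887 annotated bases are shared with KRT86 on the same strand.

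KRT8 and KRT18 together took up 1.91, 0.803 and 2.10% of all TPM in A549-GFP and 1.97, 1.92 and 1.62% in A549-TIPARP. They made up 78.7, 61.3 and 78.8% of the TPM of the 10 keratins in A549-GFP and 79.9, 78.5 and 79.5% in A549-TIPARP. Apart from replicate 2 of A549-GFP, the libraries of both lines thus lay close to each other in this share. The ratio of KRT18 to KRT8 was 1.13, 1.08 and 1.30 in A549-GFP and 1.12, 1.19 and 1.33 in A549-TIPARP, and it did not separate the lines or mark replicate 2 of A549-GFP.

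**Figure D2:**
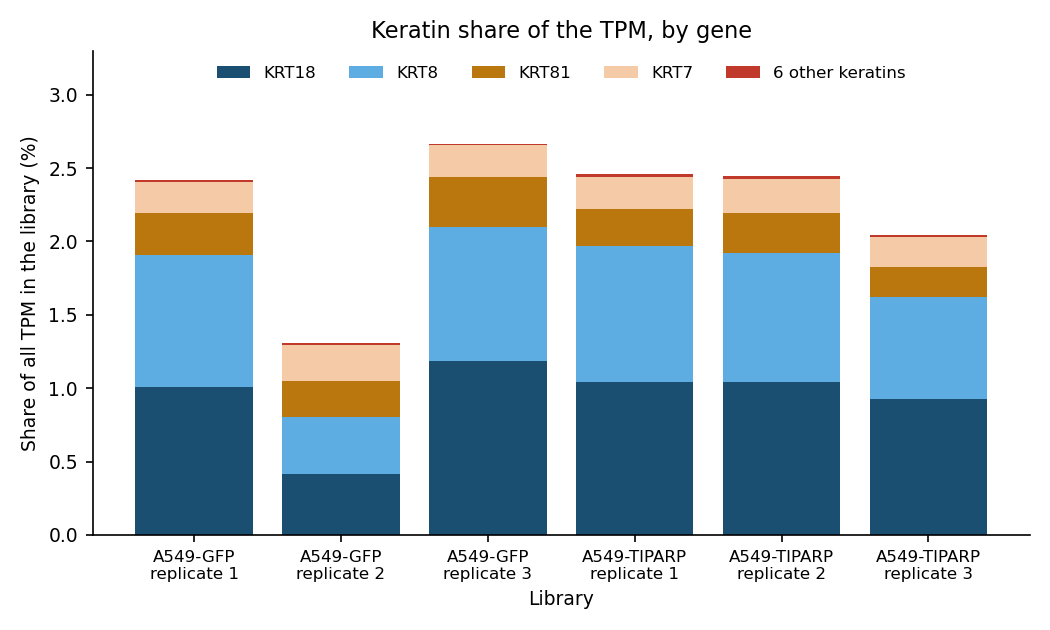
Share of each library's TPM held by KRT18, KRT8, KRT81, KRT7 and the other 6 keratins together, as stacked bars in percent from 0. Replicate 2 of A549-GFP stands at 1.31% for the 10 keratins, and the other 5 libraries at 2.04 to 2.67%.

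Among the 7 other keratins, KRT15 and KRT19 had A549-TIPARP levels above all A549-GFP libraries. They were more than 2-fold apart with and without replicate 2 of A549-GFP. KRT20 was also above and past 2-fold, but it was at the floor in each A549-GFP library. Leaving out replicate 2 of A549-GFP could therefore not change its difference. KRT15, a type I keratin of basal cells in layered epithelium, was at 7.74, 4.45 and 7.96 TPM in A549-GFP and at 37.0, 29.2 and 25.9 TPM in A549-TIPARP. The lowest A549-TIPARP library was thus above the highest A549-GFP library. The mean log2 level was 2.70 ± 0.47 (SD, n = 3) in A549-GFP and 4.92 ± 0.26 (SD, n = 3) in A549-TIPARP, a log2 difference of 2.22 (4.67-fold), or 1.95 (3.87-fold) without replicate 2 of A549-GFP.

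KRT19, a type I keratin of ducts and airways that is unusual among keratins in having almost no tail domain, was at 4.57, 2.54 and 5.36 TPM in A549-GFP and at 19.2, 18.98 and 10.9 TPM in A549-TIPARP. The groups did not overlap, with replicate 3 as the lowest A549-TIPARP library and replicate 2 as the lowest A549-GFP library. The mean log2 level went from 1.99 ± 0.57 (SD, n = 3) in A549-GFP to 3.99 ± 0.47 (SD, n = 3) in A549-TIPARP, a log2 difference of 2.00, or 1.68 (3.20-fold) without replicate 2 of A549-GFP. By level, KRT15 moved from rank 9174 to rank 4014 of the analysed genes and KRT19 from rank 10447 to rank 6164, so that both stayed far under KRT18, which was at rank 7 and rank 4.

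KRT15 and KRT19 are next to each other on the minus strand of chromosome 17, at chr17:41513745-41522529 (8 exons) and chr17:41523617-41528308 (6 exons), with 1087 bases between them. The ratio of their levels, KRT15 over KRT19, was 1.69, 1.75 and 1.49 in A549-GFP and 1.92, 1.54 and 2.38 in A549-TIPARP. The ratio thus overlapped between the lines while each level did not. Set against KRT18 within the same library, KRT19 was at 0.453, 0.608 and 0.451 TPM per 1000 TPM of KRT18 in A549-GFP and at 1.85, 1.82 and 1.17 in A549-TIPARP. KRT15 per 1000 TPM of KRT18 was 0.766, 1.07 and 0.670 in A549-GFP and 3.56, 2.79 and 2.79 in A549-TIPARP, so the lines stayed apart on this scale also.

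KRT4, a type II keratin of the non-cornified layers of the mouth and oesophagus, was at 19.3, 1.13 and 14.6 TPM in A549-GFP and at 32.0, 33.1 and 20.3 TPM in A549-TIPARP. The A549-TIPARP libraries were all above the A549-GFP libraries, but replicate 2 of A549-GFP was close to the floor and 14.8-fold under the geometric mean of the other A549-GFP libraries. The log2 difference was therefore 2.03 (4.08-fold) with all libraries and 0.73 (1.66-fold) without that library, which is no longer past 2-fold. The SD of the log2 level in A549-GFP was 2.25 for KRT4 (n = 3), more than for any of the other 9 keratins.

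KRT20, a type I keratin known from intestinal epithelium and from the umbrella cells of the bladder, was at the floor of 1 TPM in all 3 A549-GFP libraries and at 3.56, 3.20 and 1.81 TPM in A549-TIPARP. It was thus detected above the floor in A549-TIPARP alone, and it passed the filter on low values through A549-TIPARP libraries alone. The mean log2 level in A549-TIPARP was 1.45 ± 0.53 (SD, n = 3), so that the level was at least 2.74-fold higher than in A549-GFP, and the difference was 0.92 on the log2(TPM + 1) scale. KRT20 lies on the minus strand at chr17:40875889-40885242 with 8 exons, and KRT4 on the minus strand at chr12:52806549-52814116 with 9 exons, so these 2 keratins are on different chromosomes.

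The stretches before the start sites of KRT4 and KRT20, which were higher in A549-TIPARP, are shown with that of KRT10, which was not, because the table of RefSeq promoters (GRCh38.p14) held these members and KRT8 (4 of the 10). Each is the 250 bases upstream of the start site, 5′ to 3′ on the minus strand, at chr12:52814117-52814366 for KRT4, chr17:40885243-40885492 for KRT20 and chr17:40822615-40822864 for KRT10. Capitals mark a match to 1 of the motifs searched on both strands, which were GCGTG (the core of the aryl hydrocarbon receptor element), TGANTCA (AP-1), GGGCGG (Sp1) and TATAAA (the TATA box).
KRT4: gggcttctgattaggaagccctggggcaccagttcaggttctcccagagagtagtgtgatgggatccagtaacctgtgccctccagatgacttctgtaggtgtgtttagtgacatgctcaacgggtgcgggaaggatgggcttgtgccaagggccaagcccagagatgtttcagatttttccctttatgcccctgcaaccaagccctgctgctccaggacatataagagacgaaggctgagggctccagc
KRT20: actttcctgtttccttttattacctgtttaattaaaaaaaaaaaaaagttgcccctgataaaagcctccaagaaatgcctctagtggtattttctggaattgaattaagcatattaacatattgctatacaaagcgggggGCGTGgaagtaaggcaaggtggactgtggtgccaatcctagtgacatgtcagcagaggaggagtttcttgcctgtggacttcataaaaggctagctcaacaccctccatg
KRT10: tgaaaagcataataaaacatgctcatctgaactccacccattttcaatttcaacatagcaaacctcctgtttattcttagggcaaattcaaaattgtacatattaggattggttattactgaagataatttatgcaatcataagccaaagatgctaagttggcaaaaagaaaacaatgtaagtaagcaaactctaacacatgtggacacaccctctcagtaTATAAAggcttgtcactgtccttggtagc
KRT20 held 1 match to GCGTG, from -110 to -106 counted from the start site, and KRT10 held 1 match to TATAAA, from -29 to -24. KRT4 held none of these letters in this window. KRT8 held none in its own, which lies before the RefSeq start at chr12:52926470-52926719, within the longer span annotated for KRT8 above. Among 35116 promoters of the same length, 32.2% held GCGTG, 6.57% TGANTCA, 42.6% GGGCGG and 10.7% TATAAA, so a match to GCGTG or TATAAA is common and is given as a description of the sequence only.

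KRT10, KRT80 and KRT81 had overlapping libraries. KRT10, the type I keratin of the upper layers of skin, was at 57.7, 109 and 53.7 TPM in A549-GFP and at 58.8, 53.5 and 49.4 TPM in A549-TIPARP. Replicate 2 of A549-GFP was the high library here, 1.97-fold above the others of its line, and the log2 difference of -0.38 was -0.05 without it. KRT80, a type II keratin found widely in epithelium and in hair, was at 44.1, 40.7 and 27.2 TPM in A549-GFP and at 50.6, 54.6 and 40.2 TPM in A549-TIPARP. The groups overlapped through replicate 3 of A549-TIPARP, and the log2 difference was 0.40, or 0.47 without replicate 2 of A549-GFP. KRT10 lies at chr17:40818117-40822614 and KRT80 at chr12:52168996-52192014, both on the minus strand.

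KRT81, a type II keratin of the hair cortex, was at 2906, 2473 and 3404 TPM in A549-GFP and at 2517, 2739 and 2020 TPM in A549-TIPARP. The groups overlapped, and KRT81 was at rank 36 in A549-GFP and rank 54 in A549-TIPARP. The log2 difference was -0.27, and -0.39 without replicate 2 of A549-GFP, when the 3 A549-TIPARP libraries lay below the A549-GFP libraries. KRT86, the other hair keratin above the filter, was at 144, 127 and 169 TPM in A549-GFP and at 124, 143 and 101 TPM in A549-TIPARP. Its log2 difference of -0.26 was not past the threshold (limma adjusted p = 0.994), and was -0.36 without replicate 2 of A549-GFP, when the 3 A549-TIPARP libraries lay below the A549-GFP libraries as for KRT81.

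The ratio of KRT81 to KRT86 lay between 19.2 and 20.3 in all 6 libraries. KRT81, on the minus strand at chr12:52285913-52291534, lies whole within the annotated span of KRT86, which is on the plus strand at chr12:52249300-52309163. KRT81, KRT86 and KRT83 are also near-identical in sequence, and how reads that match more than 1 gene were counted is not given in the sources used here. The split of reads between KRT81 and KRT86 is therefore uncertain.

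Seen as groups, KRT7, KRT8 and KRT18 had a median log2 difference of 0.28, and the 7 other keratins 1.45, with a range of -0.38 to 2.22. The median over all 13181 analysed genes was -0.07. Of the 10 keratins, KRT4, KRT15, KRT19 and KRT20 were more than 2-fold higher in A549-TIPARP (4 of 10), where 1.53% of all analysed genes were, and 0 were more than 2-fold lower, where 0.432% of all were. The same 4 keratins had all A549-TIPARP libraries above all A549-GFP libraries, as did 5.36% of the analysed genes, and 0 had them all below, as did 3.54%. Since the keratins were chosen on this comparison, nothing is read from these shares. With all libraries the members on either side of 2-fold were KRT20 at 1.45, a lower bound, and KRT80 at 0.40. KRT20 was under 2-fold on the log2(TPM + 1) scale, at 0.92, and KRT4 without replicate 2 of A549-GFP, at 0.73.

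Without replicate 2 of A549-GFP the medians were -0.13 for KRT7, KRT8 and KRT18 and 0.73 for the 7 others, beside 0.05 over all analysed genes. KRT15, KRT19 and KRT20 were then more than 2-fold higher, and 2.91% of all analysed genes were. The median of the 7 is the value of KRT20 with all libraries and that of KRT4 without replicate 2 of A549-GFP, and KRT10, KRT80 and KRT81 were at -0.05, 0.47 and -0.39 without it, so that these 3 did not all stand above KRT7, KRT8 and KRT18. KRT15 and KRT19 were past 2-fold in all 10 alternatives run for them, and KRT20 and KRT4 in 9 of 10. For KRT20, leaving out an A549-GFP library could not change the value, since all of them were at the floor. The sign of the log2 difference turned for KRT8 and KRT18 without replicate 2 of A549-GFP alone, and for KRT7 in 3 of 10 alternatives.

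**Figure D3:**
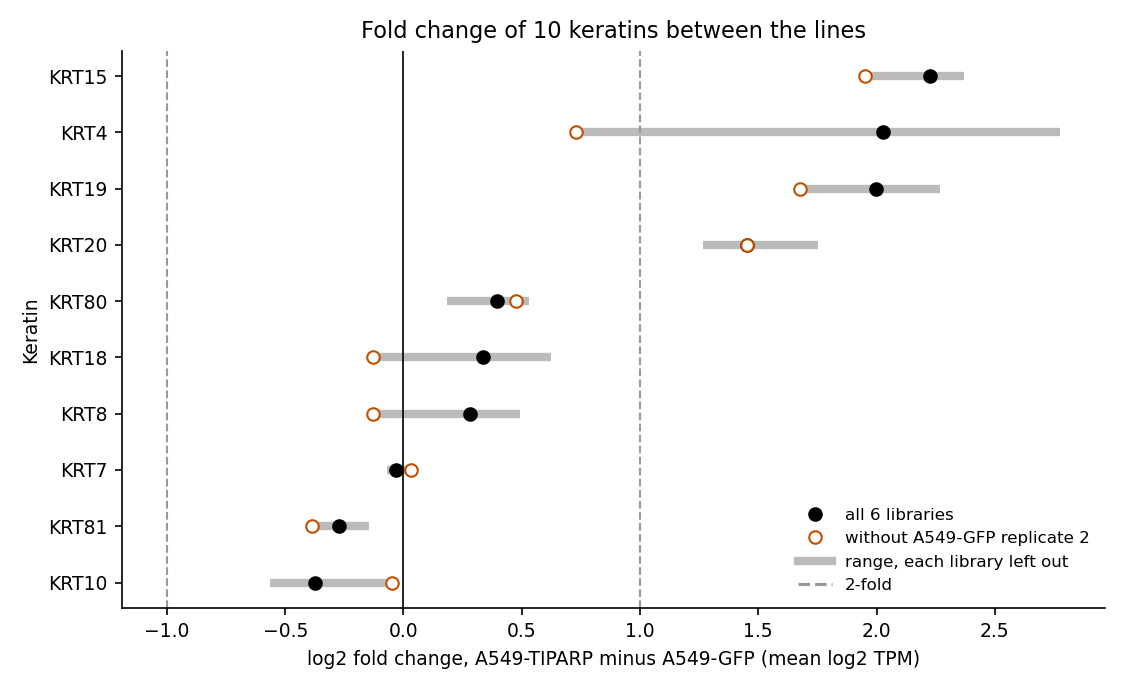
Difference of the mean log2 level, A549-TIPARP minus A549-GFP, for each keratin with all libraries and without replicate 2 of A549-GFP, with lines at 2-fold. KRT15 and KRT19 stay past 2-fold in both, KRT4 goes from 2.03 to 0.73, and KRT7, KRT8 and KRT18 lie between -0.13 and 0.34. KRT20 is past 2-fold in both, but its A549-GFP libraries are all at the floor, so leaving out replicate 2 cannot change it.

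The libraries that were low were shared by many of the keratins. Replicate 3 was the lowest A549-TIPARP library for 10 of the 10 keratins, as it was for 46.9% of all analysed genes. Replicate 2 was the lowest A549-GFP library for 6 of them (KRT4, KRT8, KRT15, KRT18, KRT19 and KRT81), as it was for 21.2% of all analysed genes, while the median analysed gene was 0.38 higher there on the log2 scale than in the other A549-GFP libraries. These keratins were thus low in a library in which most genes were not, from 1.27-fold for KRT81 to 14.8-fold for KRT4. KRT7 and KRT10 were highest there among the A549-GFP libraries. A low value in that library also raises the difference on which the keratins were chosen, so nothing is read from the count.

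Summed over each type, the type II keratins KRT4, KRT7, KRT8, KRT80 and KRT81 were at 1.38, 2.05 and 1.23 times the TPM of the type I keratins KRT10, KRT15, KRT18, KRT19 and KRT20 in A549-GFP. In A549-TIPARP the ratio was 1.34, 1.32 and 1.18. The lines overlapped, with means of 1.55 ± 0.436 and 1.28 ± 0.0860 (SD, n = 3 each), and replicate 2 of A549-GFP was the library with the highest ratio. The 4 keratins that were higher in A549-TIPARP summed to 31.6, 8.12 and 27.9 TPM in A549-GFP and to 91.8, 84.5 and 58.9 TPM in A549-TIPARP. All 6 keratins of the low set made up 0.0109 to 0.0201% of the TPM of a library, so the total over the 10 keratins, at 2.13 ± 0.723% in A549-GFP and 2.32 ± 0.237% in A549-TIPARP (SD, n = 3 each), was set by the high set.

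The keratin genes lie in 2 clusters, and most of them were at the floor, as were 40106 to 40891 of all 53826 entries in a single library. Of 27 protein-coding keratins on chromosome 12, 18 were at the floor in all 6 libraries, and of 28 on chromosome 17, 23 were. Of the 45 keratin entries outside the 10, KRT6A, KRT12, KRT83 and KRT86 were above the floor in any library (4 of 45). KRT14, the usual partner of KRT5 in basal cells, was at the floor although it lies 53970 bases from KRT19, and KRT5 was at the floor on chromosome 12. The 151 entries of keratin pseudogenes, which include 51 of KRT8, 69 of KRT18 and 5 of KRT19, were all at the floor.

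**Figure D4:**
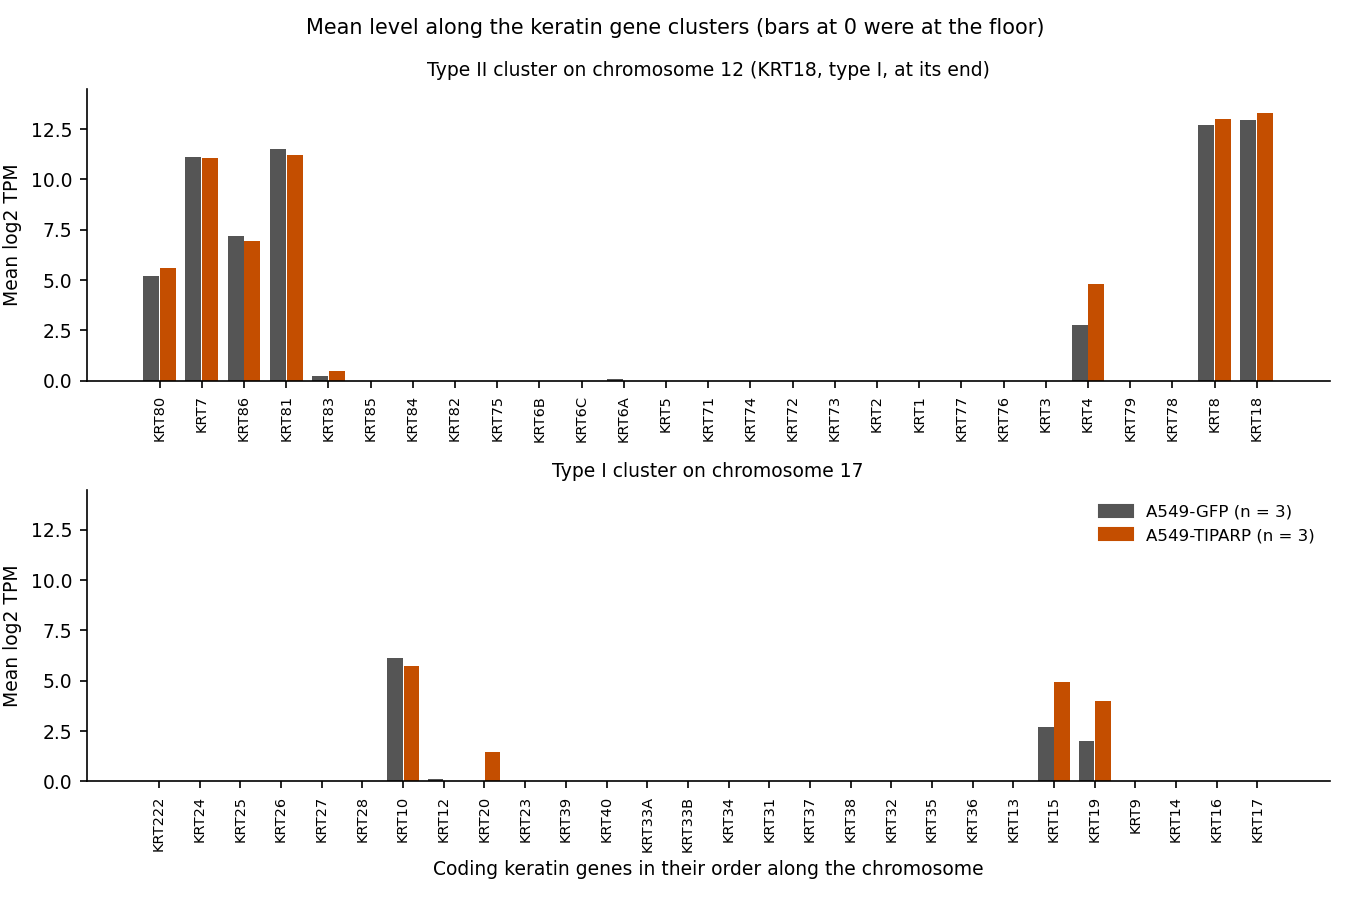
Mean log2 TPM of the protein-coding keratins in the order of their start on chromosome 12 (27 genes) and chromosome 17 (28 genes) in both lines. Levels at 0 are the floor, where 18 and 23 genes lie in all 6 libraries, and on chromosome 12 the genes of the high set lie towards the ends of the cluster.

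Genes whose products bind, anchor or accompany keratins were looked up as 6 lists with 83 genes, of which 48 passed the filter and 29 were at the floor in all libraries. None of the 48 passed the test at an adjusted p under 0.05 in limma (0 of 48), where 0.0152% of all analysed genes did. At an unadjusted p under 0.05, VIM and CNFN were higher in A549-TIPARP and none were lower (2 of 48), where 3.85% of all analysed genes passed in either direction. Without replicate 2 of A549-GFP 10 of the 48 passed, all higher, where 10.5% of all analysed genes passed, and without replicate 3 of A549-GFP 5 passed, where 8.23% did. The median log2 difference over the 48 was 0.01, against -0.07 over all analysed genes. With all libraries 0 of the 48 were past 2-fold, where 1.53% of all analysed genes were on the higher side and 0.432% on the lower side. Without replicate 2 of A549-GFP the median was 0.12, against 0.05 over all analysed genes, and PPL and COL17A1 were past 2-fold, with log2 differences of 1.19 and 1.16 (2 of 48), where 383 of the 13181 analysed genes (2.91%) lay past 2-fold on the higher side and 39 on the lower side.

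Of the 14 desmosome genes 9 were analysed, with a median log2 difference of 0.03, or 0.11 without replicate 2 of A549-GFP. DSP, the desmoplakin that ties keratin to the desmosome, was at 69.2, 61.6 and 56.4 TPM in A549-GFP and at 53.2, 49.3 and 41.7 TPM in A549-TIPARP. Its A549-TIPARP libraries all lay below the A549-GFP libraries, but the difference of -0.38 did not pass the test (limma adjusted p = 0.994). The desmocollins DSC3 and DSC2 had differences of 0.44 and 0.37, or 0.66 and 0.42 without replicate 2 of A549-GFP. Without that library all A549-TIPARP libraries lay above the A549-GFP libraries for DSC3, and the groups overlapped for DSC2. Of the 10 plakin and hemidesmosome genes 9 were analysed, with a median of 0.12, or 0.40 without replicate 2 of A549-GFP. The 3 with the largest differences were DST at 0.50 (0.91 without that library), PPL at 0.44 and COL17A1 at 0.38. Each had all A549-TIPARP libraries above the A549-GFP libraries once replicate 2 of A549-GFP was left out. PPL, the periplakin, was at 4.003, 18.5 and 3.72 TPM in A549-GFP and at 7.62, 10.5 and 8.58 TPM in A549-TIPARP, so that replicate 2 of A549-GFP was here the highest library.

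All 9 genes of keratin-binding and keratin-regulating proteins were analysed, with a median of -0.16, or -0.06 without replicate 2 of A549-GFP. The largest differences were those of SFN (14-3-3 sigma) at -0.36, CSNK1A1 at -0.21 and DNAJB6, a chaperone that binds KRT18, at -0.19. Without replicate 2 of A549-GFP the signs of CSNK1A1 and DNAJB6 turned, to 0.17 and 0.03, and SFN was at -0.59 with all A549-TIPARP libraries below the A549-GFP libraries. Of the 14 genes of other intermediate filaments 8 were analysed, with a median of 0.19, or 0.07 without replicate 2 of A549-GFP. VIM encodes vimentin, the intermediate filament of mesenchymal cells, which many epithelial cancer lines also make, and was at 396, 230 and 496 TPM in A549-GFP and at 592, 725 and 704 TPM in A549-TIPARP. All A549-TIPARP libraries lay above the A549-GFP libraries, and replicate 2 of A549-GFP was the lowest. The log2 difference was 0.91 (SE 0.27, limma unadjusted p = 0.00870, adjusted p = 0.856, from 0.310 to 1.0 over the alternatives), and 0.60 without replicate 2 of A549-GFP. LMNB1, which encodes lamin B1, and PRPH, which encodes peripherin, had differences of 0.34 and 0.40, which were -0.49 and 0.74 without replicate 2 of A549-GFP. Without it all A549-TIPARP libraries lay above the A549-GFP libraries for PRPH, and the groups overlapped for LMNB1.

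Genes of the cornified envelope and of differentiation in layered epithelium were mostly at the floor, as most of all entries were. Of these genes 14 of 18 were at the floor in all libraries and 2 were analysed. The median of the 2 was -0.02, or 0.47 without replicate 2 of A549-GFP. CNFN, which encodes cornifelin, was at 21.8, 35.7 and 31.1 TPM in A549-GFP and at 48.6, 38.0 and 54.4 TPM in A549-TIPARP. The groups did not overlap, and the log2 difference of 0.68 had a limma unadjusted p of 0.0218 and an adjusted p of 0.994, or 0.324 to 1.0 over the alternatives. CSTA, which encodes cystatin A, was at 5.87, 34.1 and 6.35 TPM in A549-GFP and at 6.54, 6.50 and 6.65 TPM in A549-TIPARP. All libraries of CSTA except replicate 2 of A549-GFP were close together, and its difference was -0.72 with that library. Without it the difference was 0.10, with all A549-TIPARP libraries above the A549-GFP libraries.

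Of 18 transcription factors known from epithelium 11 were analysed, with a median of -0.20 that turned to 0.20 without replicate 2 of A549-GFP. KLF4, a factor of epithelial differentiation, had the largest difference, with 11.0, 23.3 and 6.48 TPM in A549-GFP and 5.89, 5.75 and 6.75 TPM in A549-TIPARP. The groups overlapped, and the log2 difference of -0.95 was -0.47 without replicate 2 of A549-GFP (limma adjusted p = 0.994 with all libraries). ESRP1, a splicing regulator that was listed with these factors, and KLF5 had differences of -0.54 and -0.37, which were 0.01 and -0.19 without replicate 2 of A549-GFP.

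**Figure D5:**
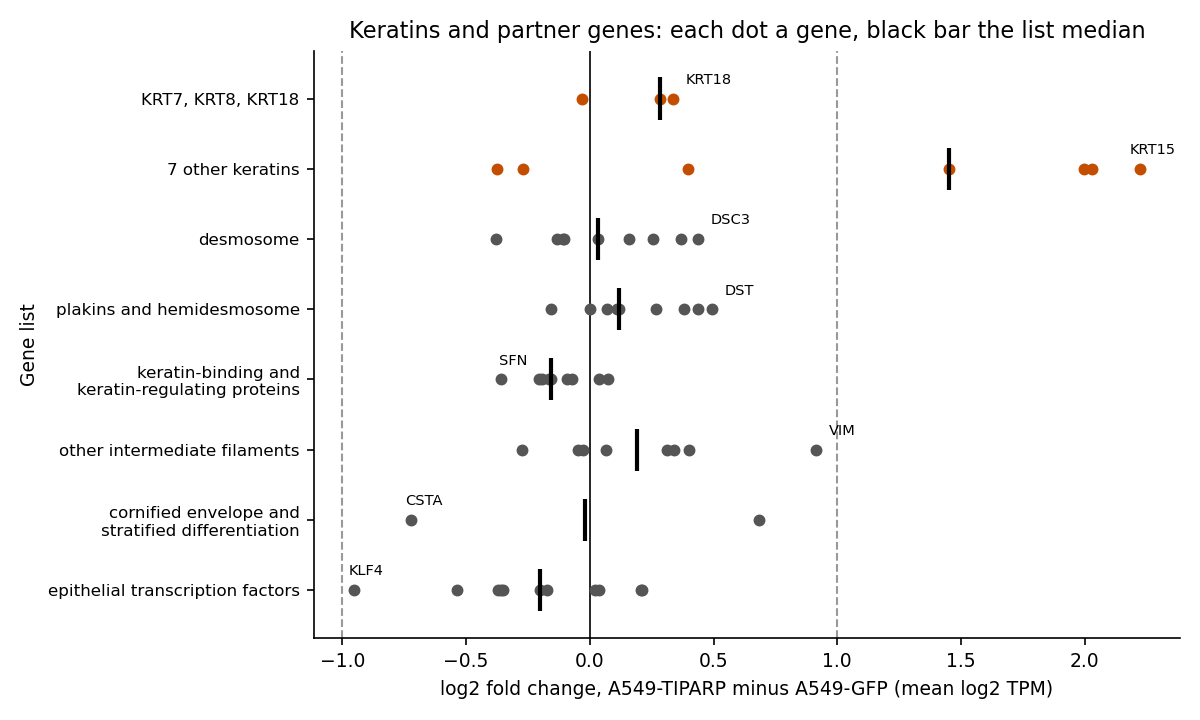
Log2 difference of each analysed partner gene, A549-TIPARP minus A549-GFP, by list, beside the keratins, with a bar at each median. The medians of the 6 partner lists lie between -0.20 and 0.19, and no partner gene is past 2-fold. The 7 keratins other than KRT7, KRT8 and KRT18 have a median of 1.45. Without replicate 2 of A549-GFP, not plotted, the list medians are -0.06 to 0.47, 2 partner genes are past 2-fold and the keratin median is 0.73. The keratins were chosen on this comparison, so nothing is read from their distance to the lists.

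The analysed genes whose levels varied over the 6 libraries most like those of KRT15 were found by a root mean square difference. It was taken over the log2 levels after each gene was centred on its own mean, so the height of the level was not compared. The nearest to KRT15 was KRT19 at 0.227, followed by OLFML2A at 0.280, RARRES3 at 0.308, REEP2 at 0.315 and WTIP at 0.331. The nearest to KRT19 was KRT15, also at 0.227, followed by PADI2 at 0.361, WTIP at 0.392, FSD1 at 0.401 and GPRC5B at 0.409. In A549-GFP, OLFML2A, RARRES3, REEP2, FSD1 and PADI2 had geometric means of 1.09 to 1.57 TPM, near the floor. By this measure KRT15 and KRT19 were nearest to each other among all 13181 analysed genes, a description over 6 libraries that both genes share. The measure holds the difference between the lines, on which these keratins were chosen. Genes with a similar difference thus come out near, and those named had log2 differences of 1.52 to 2.30. KRT20 stood at rank 6 by likeness to KRT19 and rank 25 by likeness to KRT15, and KRT4 at ranks 1553 and 1386.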

How the data were processed

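RNA-seq of A549-GFP and A549-TIPARP cells was analysed, with 3 libraries per line named from the labels. The authors prepared stranded mRNA libraries, sequenced paired ends, mapped them with Strand NGS to hg38 and deposited log2 values of TPM, with TPM under 1 set to 1. Software version, annotation release, use of strand and rule for multi-mapping reads are not given in the sources used here. No counts were used, so a planned count test was replaced by limma, and depth and counting error are unknown.

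Entries above 2 TPM in at least 1 library were analysed. Differences are between means of the deposited log2 values. All 6 libraries were fitted on the log2(TPM + 1) scale in limma 3.58.1 (R 4.3.3), with a mean-variance trend and Benjamini-Hochberg adjusted p-values, and the code was tested on simulated data. The keratins and partner lists were chosen with earlier results of these data known. Named were the 10 keratins, any other keratin past the filter, partner genes past 2-fold or a limma adjusted p under 0.05, the 3 largest differences per list, the 5 genes nearest KRT15 and KRT19, and TIPARP. Positions are from GENCODE 44. Alternatives were other pseudocounts, filters, means, scaling, variance models, a block and leaving out each library. 1 leukocyte marker is not reported here.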

Additional observations from a re-analysis of the deposited data

How the results depend on the processing

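KRT15 and KRT19 kept their direction and stayed past 2-fold in all alternatives run. The 1.45 median of the 7 keratins was 0.92 with log2(TPM + 1), and 0.73 to 1.75 when 1 library was left out, lowest without replicate 2 of A549-GFP. The 0.28 median of KRT7, KRT8 and KRT18 ran from -0.13, also without that library, to 0.49. The 202 genes more than 2-fold higher became 78 with log2(TPM + 1) and 228 to 383 with 1 library left out (324 without replicate 1 and 383 without replicate 2 of A549-GFP). The 57 lower genes became 20 with log2(TPM + 1), 143 with arithmetic means, 37 with median-ratio rescaling and 39 to 200 with 1 library left out (153 without replicate 1 and 200 without replicate 3 of A549-GFP, 103 without replicate 3 of A549-TIPARP). The cause of these shifts was not tested. Partner genes past 2-fold numbered 0, then 2 with arithmetic means and 0 to 3 with 1 library left out, with 0 only without replicate 2 of A549-TIPARP, and 0 passed limma in each fit. limma called 2 analysed genes, 1 with no filter on low values, where TIPARP lost its call (adjusted p = 0.0965), and 1 to 3 with 1 library left out, with 1 without replicate 3 of A549-GFP or replicate 1 or 2 of A549-TIPARP. With the replicate number as a block limma called 1, and the adjusted p of TIPARP was 0.513. Same-numbered libraries deviated from the means of their lines with r of 0.415, -0.486 and -0.358. Some differently numbered ones had a higher r (0.597 for replicate 2 of A549-GFP with replicate 3 of A549-TIPARP, 0.502 for replicate 1 of A549-GFP with replicate 2 of A549-TIPARP). The deviations within a line sum to 0, so these r depend on each other and cannot decide whether the numbers pair the libraries. Unadjusted, 2 of 48 partner genes passed (3.85% of all genes), 10 without replicate 2 (10.5%) and 5 without replicate 3 of A549-GFP (8.23%), 4 of 54 with no filter (4.46%), and 1 (1.92 to 3.16%) without replicate 1 of A549-GFP or replicate 1 or 3 of A549-TIPARP. DESeq2 was not run, since no counts were used. Depth limits could not be set.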

Other observations

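MUC1, a membrane mucin that was on the list of epithelial markers and was singled out after its values were seen, was at 3.25, 4.77 and 3.03 TPM in A549-GFP and at 9.15, 5.19 and 16.5 TPM in A549-TIPARP. The groups did not overlap, and replicate 3 was the highest A549-TIPARP library for MUC1 while it was the lowest for all 10 keratins. The other epithelial markers on the list outside the 10 keratins, EPCAM, CDH1, CLDN4 and CLDN7, overlapped between the lines, with log2 differences of -0.30, 0.03, 0.82 and -0.32. Without replicate 2 of A549-GFP the difference of CLDN4 was 1.40, with all A549-TIPARP libraries above, that of EPCAM was -0.38, with all below, and those of CDH1 and CLDN7 were 0.38 and 0.27. LMNB1, the lamin on the list of other intermediate filaments, was at 8.38 TPM in replicate 2 of A549-GFP and at 17.2 TPM in replicate 3 of A549-TIPARP, and at 37.9 to 58.9 TPM in the other 4 libraries. These are the libraries in which KRT4, KRT8, KRT15, KRT18, KRT19 and KRT81 were lowest in their lines, and over the analysed genes, which are not independent, their deviations from the means of their lines correlated with r = 0.597. What the libraries share was not tested.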
